A study of Homo sapiens with 22 samples.

Results

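MYCN, its antisense transcript MYCNOS, and their chromosomal neighbours DDX1 and NBAS lie side by side in band 2p24, the stretch of chromosome 2 that is copied many times over in part of all neuroblastomas. The 4 genes were followed through all probesets of the array that the platform annotation assigned to 1 of them and to no other gene, which gave 16 of 54675 probesets: 10 for MYCN, 2 for MYCNOS, 1 for DDX1 and 3 for NBAS. The signal of every line in hypoxia and in normoxia was used to see in which lines the neighbours were high together with MYCN.

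The study placed 11 human neuroblastoma cell lines under 1% O2 (hypoxia) or 20% O2 (normoxia) for 18 hours and hybridized 1 Affymetrix HG-U133 Plus 2.0 array per line and condition, 22 arrays in all. The lines were GI-LI-N, ACN, SHEP-2, SK-N-BE2(C), IMR-32, SK-N-F1, LAN-1, SK-N-SH, GI-ME-N, SHEP21N with MYCN overexpression and SHEP21N without overexpression. In SHEP21N, a SHEP cell clone with a tetracycline-controlled MYCN transgene, the line without overexpression was kept in 50 ng/mL tetracycline and the line with overexpression was not. Every value is a MAS5 signal (an intensity on a linear scale without unit). The 2 arrays of a line differ in oxygen, and no line has a replicate culture within a condition. Beyond the line name nothing says how the cultures of a line were related, so p-values measure the spread between arrays only.

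MYCN is a basic helix-loop-helix transcription factor of the MYC family that drives proliferation of sympathetic neuroblasts, and extra copies of it mark aggressive neuroblastoma. An amplified segment usually carries more than the oncogene, so the genes beside it can be copied along with it and transcribed at a higher level. DDX1, a DEAD-box RNA helicase, works in the tRNA ligase complex that joins the cut ends of spliced tRNAs. NBAS takes its name from neuroblastoma (neuroblastoma amplified sequence), and its protein belongs to the complex that tethers vesicles returning from the Golgi to the endoplasmic reticulum, with a further role in nonsense-mediated mRNA decay. MYCNOS is transcribed from the opposite strand across the start of MYCN. No copy number was measured here, and a signal cannot tell more gene copies from more transcription per copy.

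The RefSeq order on the chromosome is LRATD1, NBAS, DDX1, MYCNUT, MYCNOS and MYCN, then CYRIA, with NBAS and DDX1 pointing away from each other. The 250 bases before the start of the 3 protein-coding members, from RefSeq on the build GRCh38.p14, are shown because DDX1 and NBAS varied together over the lines and MYCN only in part with them. They run 5′ to 3′ on the gene's own strand, and capitals mark the letters GGGCGG (a GC box) or GCGTG (one form of the core bound by hypoxia-inducible factors) read on either strand.
MYCN, chr2:15940300-15940549, + strand: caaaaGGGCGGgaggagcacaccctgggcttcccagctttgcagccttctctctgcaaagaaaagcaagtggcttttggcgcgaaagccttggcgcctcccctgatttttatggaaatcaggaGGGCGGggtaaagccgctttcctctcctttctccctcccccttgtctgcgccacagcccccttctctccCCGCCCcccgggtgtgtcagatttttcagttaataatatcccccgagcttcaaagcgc
DDX1, chr2:15591618-15591867, + strand: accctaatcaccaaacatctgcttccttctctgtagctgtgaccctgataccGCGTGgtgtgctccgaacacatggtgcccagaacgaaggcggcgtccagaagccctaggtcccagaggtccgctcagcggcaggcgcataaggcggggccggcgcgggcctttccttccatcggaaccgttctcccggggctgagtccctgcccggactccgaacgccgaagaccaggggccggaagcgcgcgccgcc
NBAS, chr2:15561335-15561584, - strand: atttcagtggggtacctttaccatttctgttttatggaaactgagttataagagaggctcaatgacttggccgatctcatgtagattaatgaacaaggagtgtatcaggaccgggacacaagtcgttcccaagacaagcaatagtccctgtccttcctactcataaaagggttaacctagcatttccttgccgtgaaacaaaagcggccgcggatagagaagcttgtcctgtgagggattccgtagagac
The GC box stood 3 times in the MYCN window and not in those of DDX1 and NBAS, while 42.6% of 35116 RefSeq windows of this length held it. The letters GCGTG stood once before DDX1, and 32.2% of all windows held them. Neither the E-box CACGTG, the letters that MYC proteins bind best (6.34% of windows), nor ACGTG, the other form of the hypoxia core, which an E-box also contains (18.5%), stood in any of these 3 windows.

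Some arrays stood apart from their labels or from the rest. The arrays of SK-N-SH, GI-LI-N and IMR-32 correlated with each other across lines at r = 0.929 to 0.950 over 25072 probesets. This was as high as for the 2 arrays of 1 line (0.880 to 0.973). The 2 SHEP21N lines correlated with each other at 0.872 to 0.944, and all other pairs of different lines lay between 0.568 and 0.870. As background, SHEP cells were derived from SK-N-SH, yet the arrays labelled SK-N-SH correlated with those of SHEP-2 and SHEP21N at only 0.568 to 0.625. The 3 resembling lines are therefore also given as 1 averaged line. Array medians ran from 69.4 to 134, and signals were scaled to the median of their array, which by itself moved the contrast of a line by up to 0.52 on the log2 scale (downwards, ACN) against undivided signals. The normoxic array of SHEP21N with MYCN overexpression had 3′ to 5′ signal ratios of 67.3 for GAPDH and 94.0 for ACTB, where no array outside SHEP21N passed 2.54. Without overexpression, the ACTB ratio of SHEP21N was 5.05 in normoxia and 2.70 in hypoxia, and the hypoxic array with overexpression had 2.85.

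DDX1 was high in 3 lines only by the test used. Its signals were 73021 in hypoxia and 70035 in normoxia for GI-LI-N, 82215 and 68347 for IMR-32, and 53007 and 56864 for SK-N-SH. In the other 8 lines the 16 signals ran from 4478 in hypoxic SHEP-2 to 13392 in hypoxic SK-N-BE2(C). The 2 ranges were far apart, with the lowest of the 3 lines well above the highest of the rest. A line was called higher at a gene when limma's contrast of the line against the mean of the other 10 lines passed an adjusted p of 0.05 (Benjamini-Hochberg over all probesets) and 2-fold. DDX1 was 6.03-fold higher in GI-LI-N (log2 2.59 ± 0.18 SE, adjusted p = 1.0e-05), 6.45-fold in IMR-32 (2.69 ± 0.18, 5.9e-06) and 5.87-fold in SK-N-SH (2.55 ± 0.18, 7.0e-06).

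NBAS was high in the same 3 lines. Its main probeset, the one with the highest mean signal, gave 36267 in hypoxia and 33573 in normoxia for GI-LI-N, 26498 and 21234 for IMR-32, and 23308 and 22643 for SK-N-SH. The 16 signals of the other 8 lines ran from 494 to 1271, so the groups of lines did not overlap here either. The contrast was 22.2-fold in GI-LI-N (log2 4.48 ± 0.23, adjusted p = 1.7e-06), 14.8-fold in IMR-32 (3.89 ± 0.23, 3.1e-06) and 18.3-fold in SK-N-SH (4.19 ± 0.23, 2.3e-06). The other probesets of NBAS repeated the pattern at lower signal. Probeset 242049_s_at lay between 615 and 1175 in these 3 lines and did not pass 141 elsewhere, and 240579_at lay between 700 and 3128 in these 3 lines and did not pass 110 elsewhere. All 3 NBAS probesets were called higher in these 3 lines and in no other.

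**Figure D1:**
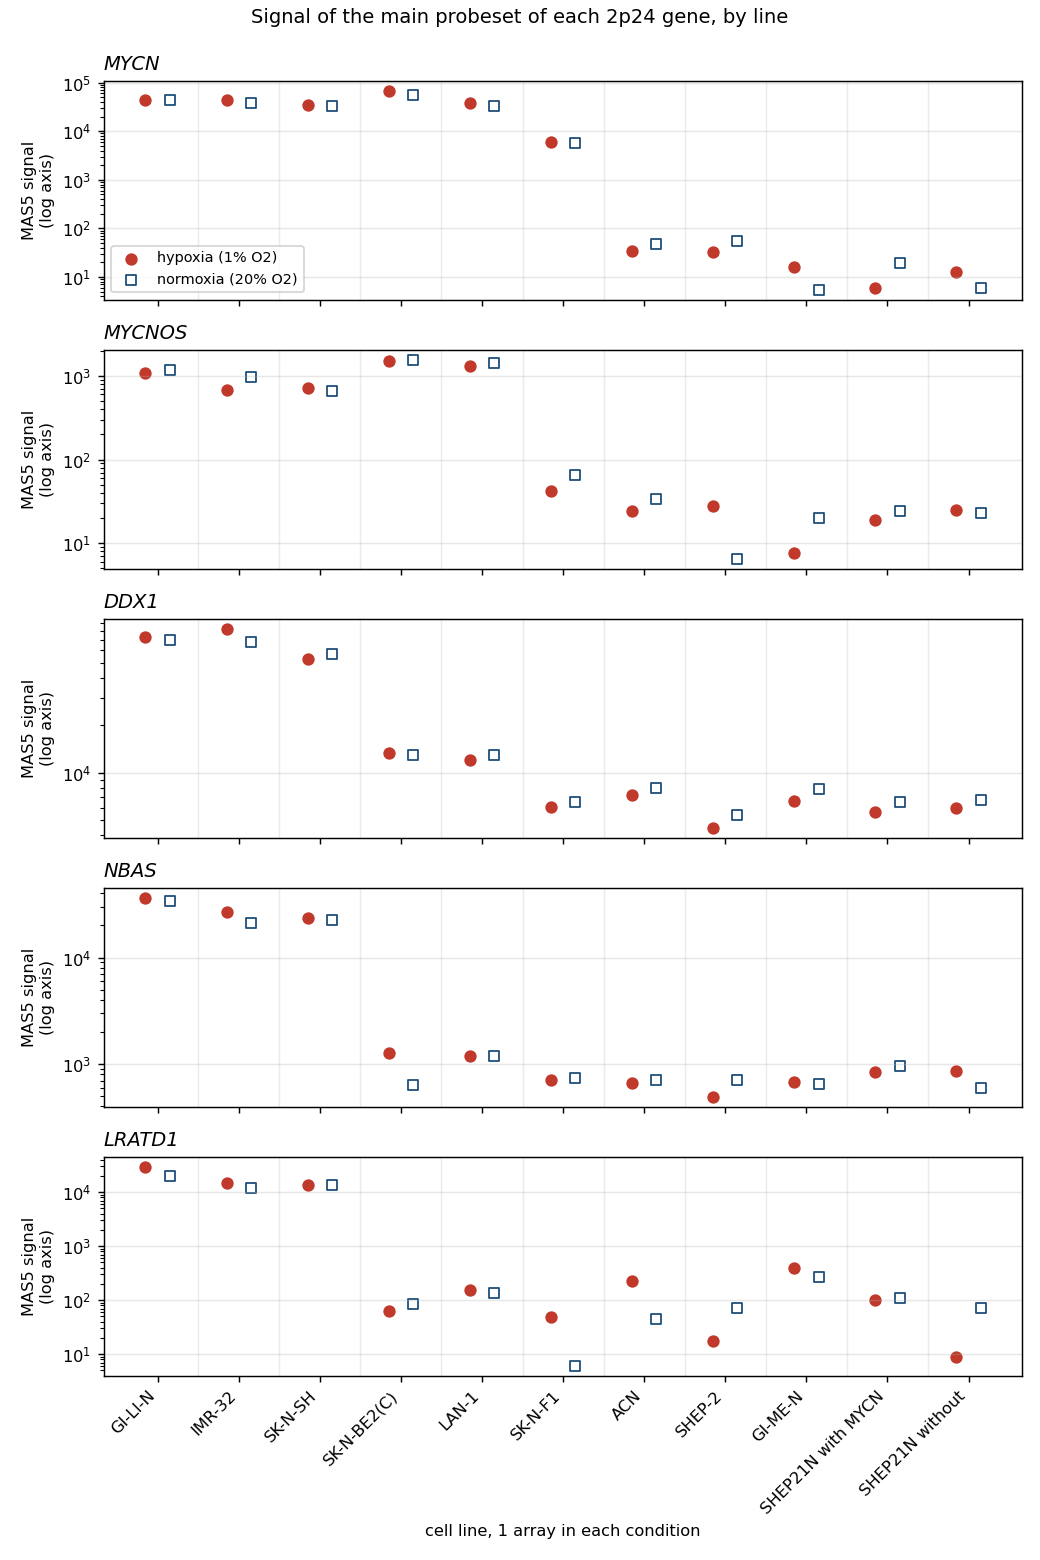
MAS5 signal (vertical log axes, arbitrary units) of the main probeset of MYCN, MYCNOS, DDX1, NBAS and the neighbouring gene LRATD1 in each line, with filled circles for the hypoxic and open squares for the normoxic array. DDX1, NBAS and LRATD1 stand high in SK-N-SH, GI-LI-N and IMR-32, whereas MYCN is also at 33350 or more in SK-N-BE2(C) and LAN-1 and at 5788 and 6119 in SK-N-F1.

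MYCN was high in more lines than its neighbours. At its main probeset, 209757_s_at, the signals were 67626 in hypoxia and 55612 in normoxia for SK-N-BE2(C), 44726 and 43593 for GI-LI-N, and 44544 and 38791 for IMR-32. LAN-1 had 37386 and 33350, SK-N-SH 35223 and 33504, and SK-N-F1 6119 and 5788. The other 5 lines did not pass 55.3 on any array, which is below the median of their arrays. MYCN was called higher in 6 lines, by 79.5-fold in SK-N-BE2(C) (log2 6.31 ± 0.39, adjusted p = 3.5e-06), by 58.9-fold to 67.1-fold in LAN-1, SK-N-SH, GI-LI-N and IMR-32, and by 8.02-fold in SK-N-F1 (adjusted p = 0.00038). In the order of median-divided levels, LAN-1 followed SK-N-BE2(C), and the arrays of GI-LI-N, SK-N-SH and IMR-32 then overlapped from each line to the next. On undivided signals GI-LI-N and IMR-32 stood above LAN-1. The folds are set against lines whose MYCN signals lay below the array median, and they shrink when these are raised to a floor of 50 (log2 5.53 for SK-N-BE2(C) and 2.22 for SK-N-F1, both still called).

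MYCNOS followed MYCN in 5 of those 6 lines. Its main probeset, 207028_at, gave 1497 in hypoxia and 1551 in normoxia for SK-N-BE2(C), 1318 and 1414 for LAN-1, 1076 and 1185 for GI-LI-N, 684 and 969 for IMR-32, and 723 and 668 for SK-N-SH. SK-N-F1 had 42.0 and 66.3, below its array median in both conditions although its MYCN signals were 6119 and 5788, and was not called here. Against SHEP-2 alone it was called (6.06-fold, adjusted p = 0.010), but SHEP-2 had 28.1 and 6.52, also below its array median. That fold was 2.15 in hypoxia and 17.1 in normoxia. In the other 5 lines MYCNOS did not pass 33.8. The 5 lines were called higher, from log2 2.91 ± 0.47 in IMR-32 (adjusted p = 0.0025) to 4.18 ± 0.47 in LAN-1 (adjusted p = 0.00016). The second probeset, 216188_at, was called higher in 4 of these lines, and LAN-1 missed the limit there (log2 1.80 ± 0.59, adjusted p = 0.055). MYCN and MYCNOS overlap on opposite strands, and which strand each probeset reads was not examined.

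Counted over the 4 genes, SK-N-SH, GI-LI-N and IMR-32 were called higher at all 4, SK-N-BE2(C) and LAN-1 at MYCN and MYCNOS, SK-N-F1 at MYCN alone, and the other 5 lines at none. By the same rule 5.04% of all 19775 genes were called higher in GI-LI-N, 4.91% in IMR-32, 10.9% in SK-N-SH, 4.53% in SK-N-BE2(C), 11.7% in LAN-1 and 10.0% in SK-N-F1. For the lines with no member called, the share was 7.14% in ACN, 7.13% in SHEP-2, 11.1% in GI-ME-N, 11.0% in SHEP21N with MYCN overexpression and 10.7% in SHEP21N without overexpression. With SK-N-SH, GI-LI-N and IMR-32 averaged into 1 line, this line was called higher at all 4 genes against the other 8 lines: 169-fold at MYCN, 14.8-fold at MYCNOS, 9.61-fold at DDX1 (log2 3.26 ± 0.19, adjusted p = 9.1e-06) and 37.6-fold at NBAS (5.23 ± 0.26, 4.2e-06). In that reading the lines called higher at DDX1 and NBAS come to 1 of 9.

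SK-N-BE2(C) and LAN-1 took a middle place at DDX1. SK-N-BE2(C) had 13392 in hypoxia and 12946 in normoxia, and LAN-1 had 12085 and 12937, above every array of the 6 remaining lines, whose highest signal was 8030 in normoxic ACN. Against the mean of the other 10 lines, 3 of which were very high, neither passed (SK-N-BE2(C) log2 -0.25 ± 0.18, adjusted p = 0.44, and LAN-1 0.30 ± 0.18, adjusted p = 0.29). Against the other 7 lines outside SK-N-SH, GI-LI-N and IMR-32, a comparison chosen after seeing the data, LAN-1 was 2.50-fold higher and called (adjusted p = 0.00036), and SK-N-BE2(C) was 1.69-fold higher (adjusted p = 0.014) and short of 2-fold. The call of LAN-1 depended on dividing by its low array medians, since on undivided signals its log2 difference was 0.83 (adjusted p = 0.0057). At NBAS, LAN-1 had 1179 and 1177, and its 2.27-fold difference from the other 7 lines (adjusted p = 0.0037) became 0.69 on the log2 scale with an adjusted p of 0.071 on undivided signals. SK-N-BE2(C) had 1271 in hypoxia but 633 in normoxia at NBAS, and its normoxic signal lay within the range of the other lines. In this comparison 15.1% of all genes were called higher in LAN-1 and 6.67% in SK-N-BE2(C).

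SHEP-2 had the lowest DDX1 level of all lines and offers another yardstick. Over SHEP-2, DDX1 was 19.6-fold higher in GI-LI-N, 20.8-fold in IMR-32, 19.1-fold in SK-N-SH, 4.61-fold in LAN-1, 3.26-fold in SK-N-BE2(C) and 2.48-fold in GI-ME-N, all called. ACN, SK-N-F1 and both SHEP21N lines lay between 1.54-fold and 1.98-fold and were not called. GI-ME-N had MYCN signals of 15.7 in hypoxia and 5.43 in normoxia. Since SHEP-2 was the lowest line, a DDX1 level above it was fixed in advance for GI-ME-N and every other line. The undivided DDX1 signals of GI-ME-N were 6595 in hypoxia and 7875 in normoxia, against 4478 and 5386 in SHEP-2, short of 2-fold. ACN, which was not called, had 7260 and 8030. The call of GI-ME-N thus depended on dividing by array medians, which were 82.9 and 70.5 there and 125 and 134 in SHEP-2. Of all genes, 22.8% were called higher in GI-ME-N over SHEP-2 and 27.4% in LAN-1.

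**Figure D2:**
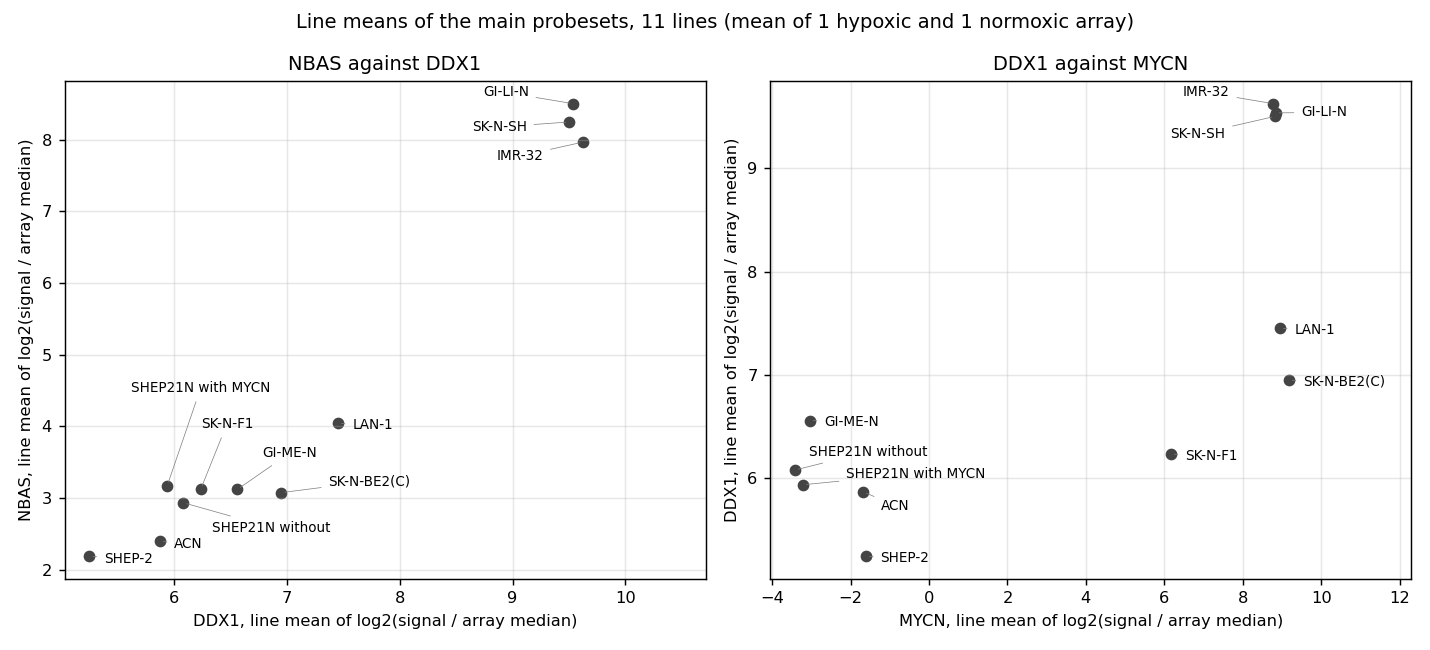
Line means of log2(signal / array median) at the main probesets, 1 point per line, each the mean of 1 hypoxic and 1 normoxic array, with NBAS against DDX1 on the left and DDX1 against MYCN on the right. SK-N-SH, GI-LI-N and IMR-32 form a group of their own in both panels, while SK-N-BE2(C) and LAN-1 reach the same MYCN level with DDX1 means of 6.95 and 7.45.

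Over the 11 line means, DDX1 and NBAS had a Pearson r of 0.975, and 0.952 over 9 points with the 3 resembling lines averaged. MYCN and MYCNOS had an r of 0.943 (0.929 over 9 points). MYCN had an r of 0.757 with DDX1 and 0.664 with NBAS (0.696 and 0.551 over 9 points). The values are a description, as the points share arrays and scaling and 3 of them resemble each other, as do the 2 SHEP21N lines. Of the 11339 other genes with a mean signal above the array median, NBAS was the one most like DDX1 by Pearson r over the 11 lines, and DDX1 the one most like NBAS. This order was not kept by every measure, as GCHFR stood closer to NBAS over 9 points (r = 0.961), and TSKU (Spearman rho = 0.927) and LRP8 (0.90) closer to DDX1 by rank than NBAS did (0.845). Next to NBAS, the genes most like DDX1 were LRP8 (a receptor for reelin and apolipoprotein E, r = 0.972), EMID1 (0.954), TSKU (0.950) and LRATD1 (0.946). For NBAS they were GCHFR (the feedback regulator of GTP cyclohydrolase, 0.974), HPCA (hippocalcin, a neuronal calcium sensor, 0.966), LRP8 (0.963) and LRATD1 (0.959). The genes most like MYCN lay elsewhere in the genome or far off on chromosome 2, and were DCX (doublecortin, a microtubule protein of young neurons, 0.992), ELAVL3 (a neuronal RNA-binding protein, 0.989), KIF1A (an axonal transport motor, 0.987), KIF26A (0.985) and ACTL6B (a neuronal chromatin-remodelling subunit, 0.985).

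Neuronal markers moved with MYCN over the lines. Of 10 sympathoadrenal neuroblast markers measured, 7 to 10 were called higher in GI-LI-N, IMR-32, SK-N-SH, SK-N-BE2(C), LAN-1 and SK-N-F1 (PHOX2A, HAND2, GATA3, STMN2 and ELAVL4 in all 6 lines), and 0 in SHEP-2, GI-ME-N, ACN and both SHEP21N lines. TH went the other way in SK-N-SH (log2 -2.54). Of 8 markers of substrate-adherent mesenchymal cells, 4 to 6 were called higher in those 5 lines (CD44 and YAP1 in each) and 0 or 1 in the other 6. CD44 was also called in SK-N-F1 and FN1 in LAN-1. TWIST1 was lower in ACN (log2 -2.24), SHEP-2 (-1.29) and both SHEP21N lines, and called in SK-N-BE2(C) and SK-N-SH. COL1A1 was lower in ACN (-7.84). The part of these markers in the MYCN pattern was not tested. The 3 lines called higher at DDX1 and NBAS shared the neuroblast markers with SK-N-BE2(C), LAN-1 and SK-N-F1. These last were not called at DDX1 or NBAS against the other 10 lines, though SK-N-BE2(C) and LAN-1 took a middle place at DDX1.

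**Figure D3:**
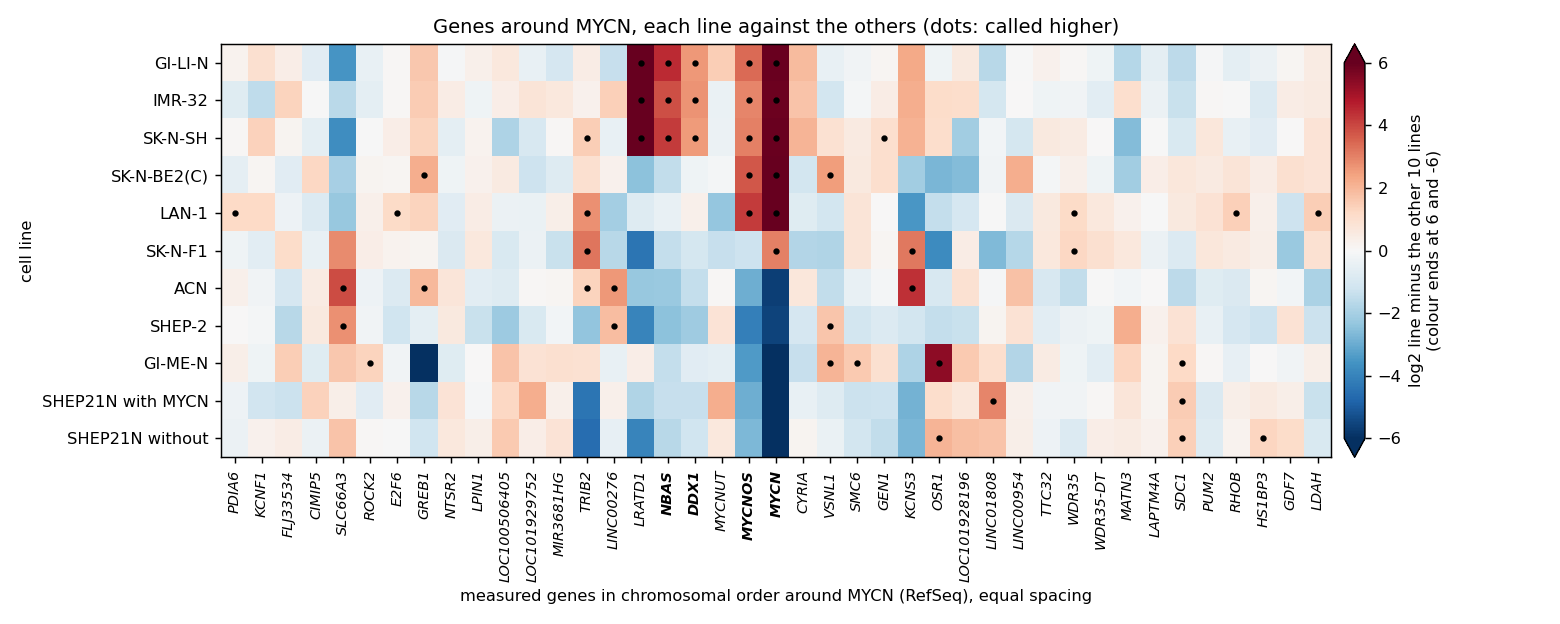
Log2 difference of each line from the mean of the other 10 lines (colour, ending at 6 and -6) for MYCN and 20 measured genes on each side in chromosomal order, with dots for calls of higher signal. In SK-N-SH, GI-LI-N and IMR-32 the dots run from LRATD1 through NBAS and DDX1 to MYCNOS and MYCN, with MYCNUT left out. Over the same stretch SK-N-BE2(C) and LAN-1 have dots at MYCNOS and MYCN, and SK-N-F1 at MYCN.

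One more neighbour was high with DDX1 and NBAS. LRATD1, a gene of the LRAT domain family and the next measured gene beyond NBAS, had signals of 29484 in hypoxia and 19589 in normoxia in GI-LI-N, 14718 and 12126 in IMR-32, and 13777 and 13858 in SK-N-SH. No array of the other 8 lines passed 393, the level of hypoxic GI-ME-N. LRATD1 was called higher in those 3 lines and in no other, with log2 differences of 6.87 ± 0.82 (GI-LI-N, adjusted p = 0.00034), 5.97 ± 0.82 (IMR-32, 0.00081) and 6.38 ± 0.82 (SK-N-SH, 0.00036), and of 8.01 ± 0.90 (adjusted p = 0.00039) with the 3 lines averaged. From LRATD1 to MYCN, all measured genes but MYCNUT were thus high in these lines.

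The edges of the stretch were read from the flanking genes. MYCNUT, a long non-coding RNA gene between DDX1 and MYCN, was above its array median on only 4 of 22 arrays, and no line was called higher at it. On the far side of MYCN, CYRIA (a regulator of the actin cytoskeleton) was faint, at 155 in hypoxia and 144 in normoxia for GI-LI-N, 144 and 123 for IMR-32, and 128 and 130 for SK-N-SH. Its log2 differences of 1.88 in GI-LI-N, 1.72 in IMR-32 and 2.03 in SK-N-SH missed the limit (adjusted p = 0.13, 0.17 and 0.070), and ACN reached 157 in normoxia. Further out, KCNS3 (a potassium channel subunit, named after its values were seen) came closer to the limit in the same lines, with log2 2.28 in GI-LI-N (adjusted p = 0.051), 2.18 in IMR-32 (0.064) and 2.08 in SK-N-SH (0.051), and was called in ACN (log2 4.39) and SK-N-F1 (3.17). Of the 37 measured genes in the window other than the members, 1 was called higher in GI-LI-N and in IMR-32 (LRATD1, 2.7% against 5.04% and 4.91% of all genes) and 3 in SK-N-SH (8.11% against 10.9%). Those of SK-N-SH were LRATD1, TRIB2 (a pseudokinase, 2.79-fold) and GEN1 (a Holliday junction resolvase, 2.02-fold). TRIB2 was also called in ACN, LAN-1 and SK-N-F1, the last at 9.35-fold, lines in which DDX1 was not called. The median log2 difference of the window genes was -0.0028 in GI-LI-N, beside 0.012 over all genes, 0.06 in IMR-32, beside 0.011, and 0.06 in SK-N-SH, beside 0.16.

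**Figure D4:**
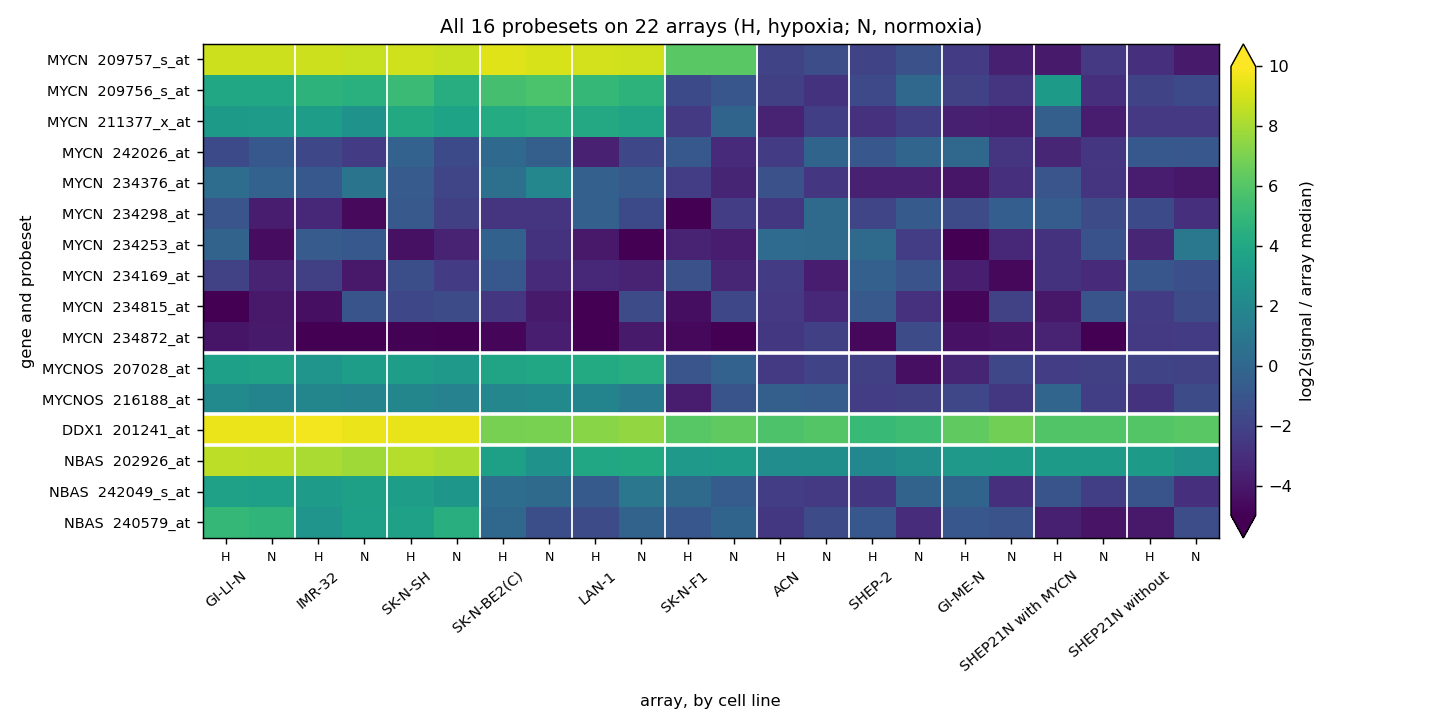
Log2(signal / array median) of all 16 probesets (rows, grouped by gene) on 22 arrays (columns, hypoxia left of normoxia within each line). The 3 NBAS probesets and DDX1 are brightest in SK-N-SH, GI-LI-N and IMR-32, and 3 MYCN probesets and both MYCNOS probesets are bright in 5 lines.

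The probesets of MYCN were unequal. Of the 16 member probesets, 11 differed over the 11 lines by limma's F test with condition in the model (adjusted p under 0.05), where 52.4% of all probesets did: all of MYCNOS, DDX1 and NBAS, and 5 of 10 of MYCN. Probeset 209756_s_at lay between 1419 and 5547 in GI-LI-N, IMR-32, SK-N-SH, SK-N-BE2(C) and LAN-1 and was called in 4 of these, GI-LI-N falling short (log2 2.84 ± 0.97, adjusted p = 0.093). Probeset 211377_x_at lay between 584 and 2139 in the same lines and was called in all 5. SK-N-F1, with 6119 and 5788 at the main probeset, had 27.9 and 40 at 209756_s_at and 16.1 and 70.4 at 211377_x_at, below its array medians, so its MYCN call rested on 1 probeset. The other 7 MYCN probesets stayed at or below 393 on every array, and 3 of them were below the array median on all 22, among them 234169_at, which differed over the lines and is given no direction.

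Hypoxia changed none of the members detectably. Whether 18 hours at 1% O2 moved them was asked with limma on hypoxia minus normoxia, with the line as a block. None of the 16 probesets passed (1 had an unadjusted p under 0.05, and a paired t-test over all probesets with Benjamini-Hochberg adjustment also called 0), where 0.0476% of all probesets did (26, of which 25 were higher). MYCN at its main probeset changed by log2 0.02 ± 0.23 (adjusted p = 0.99), higher in 6 of 11 lines. The extremes were -1.45 in SHEP21N with MYCN overexpression and 1.30 in GI-ME-N, both with signals below the array median. IMR-32, GI-LI-N, SK-N-BE2(C), SK-N-SH, LAN-1 and SK-N-F1, each far above it, stayed between -0.05 and 0.22.

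DDX1 changed by log2 -0.12 ± 0.10 in hypoxia (adjusted p = 0.80), lower in 7 of 11 lines, with extremes of -0.49 in GI-ME-N and 0.18 in IMR-32. NBAS changed by 0.09 ± 0.13 (adjusted p = 0.89), higher in 6 of 11 lines. Its largest single change was the 1271 in hypoxia against 633 in normoxia in SK-N-BE2(C). MYCNOS changed by -0.15 ± 0.27 (adjusted p = 0.91), lower in 8 of 11 lines. The 1 probeset with an unadjusted p under 0.05 was 234169_at of MYCN (log2 1.16 ± 0.22, adjusted p = 0.14), with a positive difference in 11 of 11 lines. It was below the array median on all 22 arrays, at 6.17 to 93.8 in hypoxia and 2.70 to 60.2 in normoxia. The sign of its difference is therefore not read as a direction.

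**Figure D5:**
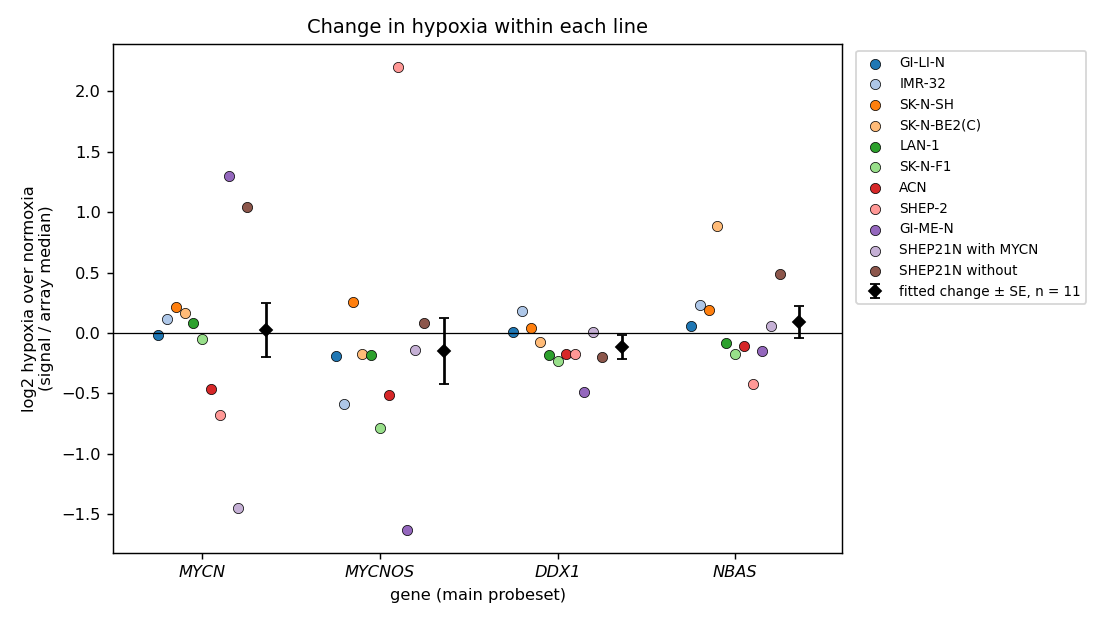
Log2 ratio of hypoxia over normoxia (signal / array median) of the main probeset of each gene, 1 coloured point per line, with black diamonds for the fitted change and its SE over 11 lines. The points of DDX1 lie within 0.5 of 0 and those of MYCN and MYCNOS spread widest in lines where the signal was below the array median.

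SHEP21N gave the one contrast of MYCN that the labels hold. At the main probeset MYCN had 6 in hypoxia and 19 in normoxia with overexpression, against 12.7 and 6 without. At 209756_s_at it had 830 in hypoxia and 13.7 in normoxia with overexpression, against 25.3 and 28.7 without. The hypoxic array labelled as overexpressing thus had a clear MYCN signal at 1 probeset, and the normoxic array, the one with the highest 3′ to 5′ ratios, had none at either. The normoxic array without overexpression also had a raised ACTB ratio (5.05). None of the 16 probesets passed with overexpression minus without (limma, 2 arrays each, 2 with an unadjusted p under 0.05), where 0.154% of all probesets did. At 209756_s_at the difference was log2 1.89 ± 1.30 (adjusted p = 0.73). DDX1 had 5671 in hypoxia and 6560 in normoxia with overexpression, against 5989 and 6683 without (log2 -0.14 ± 0.24, adjusted p = 0.93). NBAS had 849 and 950 with overexpression, against 857 and 596 without (0.24 ± 0.31, adjusted p = 0.90). The differences of DDX1 and NBAS in this pair of lines were thus smaller than their SE. This also holds for MYCN itself at the main probeset (log2 0.20 ± 0.53). These SE come from the fit over all lines, and the spread within this pair alone was not estimated.

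Of the listed genes that work with DDX1 and NBAS, only UPF2 and SMG8 in SK-N-SH were called higher in the lines where DDX1 and NBAS were high. All 6 listed genes of the tRNA ligase complex (among them RTCB, the ligase itself) were measured and above the array median on all 22 arrays. None of them was called higher in the 3 lines. Their log2 differences ran from -0.43 to 0.21 in GI-LI-N, from -0.77 to 0.15 in IMR-32 and from 0.20 to 0.85 in SK-N-SH, with medians of 0.0015, -0.19 and 0.41 for these lines, beside medians over all genes of 0.01, 0.01 and 0.16. Of the 8 genes of the NBAS tether and its syntaxin 18 complex, such as ZW10 and RINT1, 0 were called higher in these lines either, with medians of -0.40 in GI-LI-N, -0.58 in IMR-32 and -0.12 in SK-N-SH. In GI-LI-N all 8 were lower, from -0.89 to -0.18, while the ranges were -0.84 to 0.74 in IMR-32 and -0.64 to 0.15 in SK-N-SH. By the same rule 5.04% of all genes were called higher in GI-LI-N, 4.91% in IMR-32 and 10.9% in SK-N-SH. Counts of 0 in lists of 6 and 8 genes are near these shares and say little about the lists. Of 6 nonsense-mediated decay genes measured, 0 were called in GI-LI-N and IMR-32 and 2 in SK-N-SH, UPF2 and SMG8, while 10.9% of all genes were called there. The decay genes had medians of 0.13 in GI-LI-N (-0.50 to 0.41) and 0.36 in IMR-32 (-0.16 to 0.87). In SK-N-SH all 6 were higher, from 0.49 to 1.15, with a median of 0.99 beside 0.16 over all genes. In hypoxia 0 of the 20 genes of these lists passed, with median log2 changes of -0.19 (tRNA ligase), -0.17 (tether) and -0.06 (decay) beside -0.04 over all genes.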

How the data were processed

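The authors hybridized labelled RNA from each line and condition to 1 array and made MAS5 signals with Microarray Suite, scaled to a common average. These deposited values are intensities on a linear scale, before the division by array and gene medians that the methods describe. All 54675 probesets entered each fit. Signals were divided by the array median and log2 transformed, and fitted with limma 3.58.1 in R 4.3.3, with 2 models: hypoxia minus normoxia with the line as a block, and line plus condition for the F test, the line contrasts and SHEP21N. P-values are two-sided and adjusted by Benjamini-Hochberg over all probesets. Genes were named from the platform annotation through RefSeq gene IDs (41037 of 41091 single-gene probesets matched), and 1801 probesets naming several genes were left unnamed. The main probeset of a gene has the highest mean log2 signal. From the window, the genes called higher in a line with raised DDX1 or NBAS were named, and from the likeness ranking the 5 with the highest r. The scripts were tested on simulated data. No reads stand behind the values, so the number of arrays limits the precision. The members and lists were chosen with earlier results of these data known.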

Additional observations from a re-analysis of the deposited data

Results flagged for a closer look

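In SHEP21N, 2 MYCN probesets that passed the highest array median (134) on any SHEP21N array differed in direction between the 2 conditions, with overexpression minus without. There was 1 array each, so the difference was not tested. Fainter member probesets also changed direction, among them the main MYCN probeset (log2 -1.04 in hypoxia and 1.45 in normoxia). Probeset 209756_s_at had a log2 difference of 5.07 in hypoxia (830 with overexpression, 25.3 without) and -1.28 in normoxia (13.7 with, 28.7 without). Probeset 234253_at had 0.57 in hypoxia (13 with, 9 without, both below the array median) and -2.22 in normoxia (46.7 with, 187 without). The normoxic array with overexpression is also the one with GAPDH and ACTB 3′ to 5′ ratios of 67.3 and 94.0. The normoxic array without overexpression had an ACTB ratio of 5.05. The part of these ratios in the result was not tested.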

How the results depend on the processing

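The lines called higher at MYCN came to between 4 and 6 under all alternatives, and those at DDX1 and NBAS were 3 except in the cases below. With SK-N-SH, GI-LI-N and IMR-32 averaged into 1 line, the lines called came to 3 at MYCNOS, 1 at DDX1 and 1 at NBAS, since 3 lines became 1. Against SHEP-2 alone, 6 lines were called at MYCNOS, 6 at DDX1 and 4 at NBAS (LAN-1 added to the 3). At MYCNOS, SK-N-F1 was added to the 5, with the signals of SK-N-F1 and SHEP-2 below their array medians. Every line call at DDX1, NBAS and LRATD1 kept its side of the limit under all 10 alternatives run for it, including each of its 2 arrays left out. The log2 values then ran from 2.20 to 4.38 at DDX1, from 3.63 to 6.31 at NBAS and from 5.11 to 9.84 at LRATD1. At MYCNOS, IMR-32 without its normoxic array (adjusted p = 0.075) and SK-N-SH without its hypoxic array (adjusted p = 0.050) missed the limit. With the mean of all MYCN probesets, SK-N-F1 reversed to log2 -0.85 and LAN-1 fell short of 2-fold at 0.90.

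The following values changed sign, and those that were called after doing so are named as called. The hypoxia change of MYCN became -0.011 with quantile normalization and lay between -0.10 (without GI-ME-N) and 0.17 with 1 line left out. At DDX1, SK-N-BE2(C) became 0.010 with quantile normalization, 0.33 with the 3 lines averaged, 1.70 against SHEP-2 (called) and 0.75 against the other 7 lines, and LAN-1 became -0.14 on undivided signals and -0.22 with quantile normalization. At NBAS, SK-N-BE2(C), lower in the main comparison at log2 -1.49 (adjusted p = 0.0015), became 0.89 against SHEP-2 and 0.078 against the other 7 lines, and LAN-1 became 0.51 with the 3 lines averaged, 1.85 against SHEP-2 (called) and 1.18 against the other 7 lines (called). The cause was not tested.

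Each line has 1 hypoxic and 1 normoxic array, so the line pairs them. Without the replicate block the hypoxia changes kept their values (0.02 for MYCN, -0.15 for MYCNOS, -0.12 for DDX1 and 0.09 for NBAS), and 0 of the 16 probesets passed with or without the block or under any other alternative, while the count over all probesets ran from 0 (3 lines averaged) to 95 (mean signal of at least 100) beside 26. The 3 MYCN probesets below the array median on all 22 arrays were given no direction.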
